A study of Mus musculus with 8 samples.

Results

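The plasminogen activators, serpins and TIMPs examined here are 9 genes of the extracellular protease system of bone cells: Plat, Plau, Plaur, Serpine2, Serpinf1, Timp1, Timp2, Timp3 and Timp4. They were chosen by symbol from the 47706 genes of the deposited count table, with the entry of highest mean count standing for a symbol. Each of the 9 had a single entry. RNA was sequenced from primary mouse calvarial osteoblasts, bone-forming cells of the skullcap, after 7 days of differentiation. Of the 8 samples, 4 had been treated with PTH (parathyroid hormone) for 24 hours and 4 with vehicle. According to the study's methods the cells came from newborn mice, were kept in osteogenic medium and were starved of serum before treatment, in both groups alike. The labels of all 8 samples instead name adipogenic differentiation, and their titles begin with "Con", which is not explained.

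Plasmin, a broad protease that dissolves fibrin and activates other matrix proteases, is cut from plasminogen by 2 activators, tPA (encoded by Plat) and uPA (encoded by Plau). The receptor uPAR (encoded by Plaur) holds uPA at the cell surface. Serpins are suicide inhibitors of serine proteases: protease nexin-1 (Serpine2) blocks the activators, while PEDF (Serpinf1) is a secreted serpin that does not inhibit proteases and whose loss in humans causes a brittle bone disease. TIMPs are small secreted inhibitors of the matrix metalloproteinases. Osteoblasts secrete members of each class, and the hormone PTH acts on them through a receptor that raises cyclic AMP.

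Total counts per sample were between 33605610 and 56090654 with PTH and between 41618108 and 46757836 with vehicle, and 16736 genes had enough counts to be tested. Levels are given as CPM, which are counts relative to TMM-scaled library size, as mean ± SD of 4 samples. Changes are log2 fold changes of PTH over vehicle with their standard error (SE), from the quasi-likelihood F-test of edgeR, its p-values adjusted over all tested genes by the method of Benjamini and Hochberg, and a gene was called upregulated or downregulated at an adjusted p under 0.05. The labels do not say whether the 4 samples of a group came from separate preparations of cells, so p-values measure only the spread between these samples, which may be technical. In a check of the labels, Tnfsf11 (RANKL), a known target of PTH, stood at 1.42 ± 0.365 CPM in vehicle samples and at 128 ± 20.0 CPM after PTH. Osteoblast markers were abundant, with a median over 10 genes of 208 to 353 CPM per sample, whereas the median of 7 adipocyte markers was 2.60 to 4.67 CPM. With PTH, 3 of the 10 osteoblast markers were downregulated and none was upregulated, against 22.5% and 23.3% of all tested genes. These were Sp7, Dmp1 and Runx2, with log2 fold changes of -1.78, -1.12 and -0.33. PTH replicate 1 stood apart from the other samples. It had the largest total count, and its Alb (albumin) level was 39.2 CPM where the other 7 samples had 5.79 to 12.1 CPM. For Plaur, Serpine2, Serpinf1 and Serpina3k, changes are given with and without PTH replicate 1.

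With PTH, 4 of the 9 genes were upregulated (Plaur, Plau, Timp1 and Serpine2), 1 was downregulated (Plat), and 4 did not pass the threshold (Serpinf1, Timp2, Timp3 and Timp4). All 9 passed the filter on low counts. Among all tested genes, 23.3% were upregulated and 22.5% were downregulated. In the same 4 upregulated genes every PTH sample was above every vehicle sample, against 21.2% of all tested genes, and for no member was every PTH sample below every vehicle sample, against 21.8%. A log2 fold change of 1 or more was also reached by 2 of the upregulated members (Plaur and Plau), against 7.36% of all tested genes. The median log2 fold change of the 9 genes was -0.08, beside a median of 0.0 over all tested genes. In such bulk RNA, fewer cells of a type and less RNA per cell cannot be told apart.

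**Figure D1:**
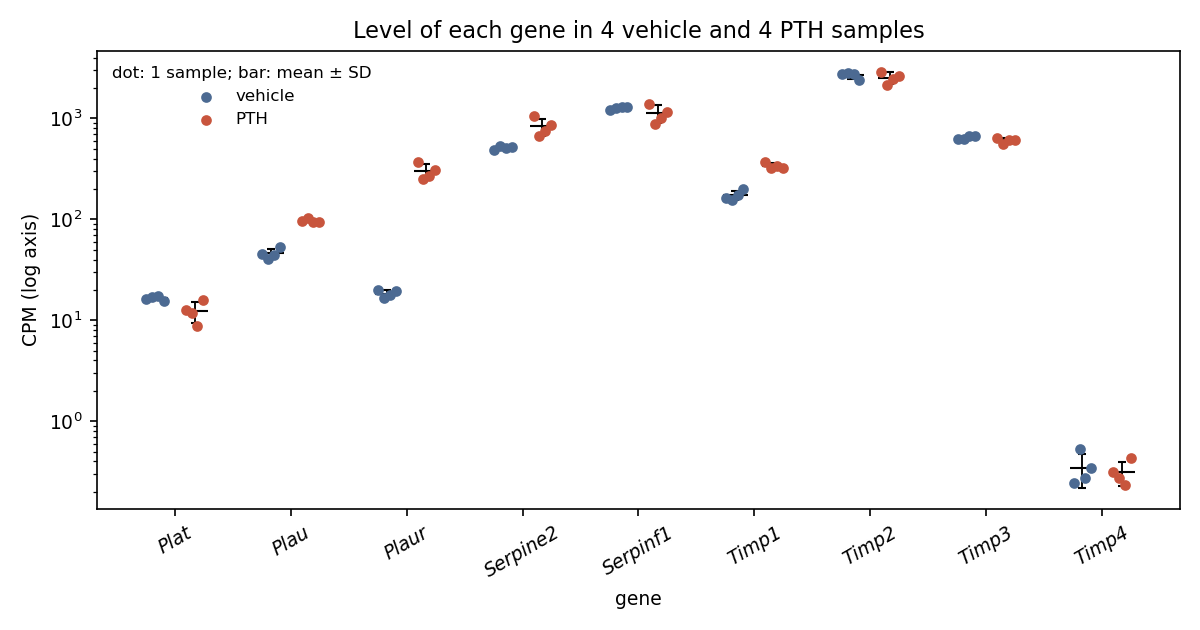
Level of each of the 9 genes in CPM (log axis), with 1 dot per sample, vehicle in blue and PTH in red, and black bars for mean ± SD of 4 samples. The Plaur dots rise from between 16.5 and 19.9 CPM to between 250 and 366 CPM, the dots of Plau, Serpine2 and Timp1 also separate by treatment, and Timp4 lies under 1 CPM throughout.

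**Figure D2:**
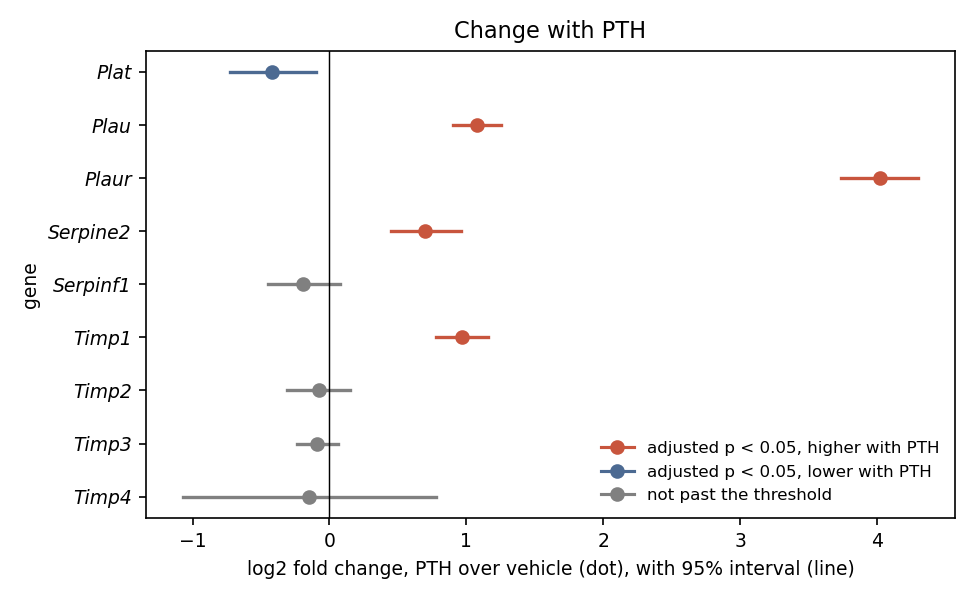
Log2 fold change of PTH over vehicle for each gene (dot) with its 95% interval (line), in red for upregulated, blue for downregulated and grey for genes that did not pass the threshold. Plaur stands at 4.02, Plau at 1.08, Timp1 at 0.97 and Serpine2 at 0.70, and the interval of Plat, from -0.73 to -0.10, is the only one that lies wholly under 0.

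Plaur encodes the receptor that concentrates uPA on the cell surface, and it changed most among the 9 genes. The gene lies on chromosome 7 from 24462484 to 24475968 on the plus strand (GRCm38, GENCODE M21, used for all gene positions below). Its levels in vehicle replicates 1 to 4 were 19.9, 16.5, 17.7 and 19.4 CPM, and in PTH replicates 1 to 4 they were 366, 250, 267 and 308 CPM. No sample of either treatment came near the range of the other, and the lowest PTH count of 8310 stood against a highest vehicle count of 960. Plaur rose by 4.02 on the log2 scale (SE 0.126, 95% interval 3.74 to 4.30, adjusted p = 1.87e-10), which is 16.2-fold. Without PTH replicate 1, its highest sample, the log2 fold change was 3.90. Plaur is also a gene of macrophages. Of 11 macrophage markers in the same samples, 4 were upregulated (Lyz2, Cd14, Fcgr3 and Tyrobp), against 23.3% of all tested genes, and none lacked counts. All 11 log2 fold changes were positive, from 0.19 (Csf1r) to 0.86 (Tyrobp), with a median of 0.34. The sum of these markers spanned 1090 to 1770 CPM across vehicle samples and 1700 to 2190 CPM across PTH samples, so the ranges of the sum overlapped. Lyz2 was the largest part of that sum, its mean being 914 CPM for vehicle and 1420 CPM for PTH. The part of macrophages in the change of Plaur was not tested.

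Plau encodes urokinase, the activator that binds this receptor, and lies on chromosome 14 from 20836660 to 20843385 on the plus strand. Vehicle replicates 1 to 4 had 45.5, 40.6, 44.5 and 53.0 CPM, and PTH replicates 1 to 4 had 96.6, 102, 93.7 and 95.1 CPM. All PTH samples were above all vehicle samples, and they lay closer together than those of any other member, with an SD of 3.90% of the mean. Plau rose by 1.08 on the log2 scale (SE 0.0810, 95% interval 0.90 to 1.25, adjusted p = 4.65e-07), or 2.11-fold. Per kilobase of the longest annotated coding transcript, the Plaur level was 0.567 to 0.681 times the Plau level with vehicle and 3.80 to 5.89 times the Plau level with PTH. On this scale the level of Plaur RNA was thus under that of Plau RNA in all 4 vehicle samples and above it in all 4 PTH samples. Protein was not measured.

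Plat encodes tPA, the activator best known for dissolving clots, and lies on chromosome 8 from 22757727 to 22782844 on the plus strand. Its levels were 16.3, 17.2, 17.3 and 15.5 CPM in vehicle replicates 1 to 4 and 12.7, 11.9, 8.87 and 16.0 CPM in PTH replicates 1 to 4. PTH replicate 4 lay inside the vehicle range, while the other 3 PTH samples lay under it. Plat fell by 0.42 on the log2 scale (SE 0.145, 95% interval -0.73 to -0.10, adjusted p = 0.0336), a change of -25.1%. Leaving out PTH replicate 2 or 3 or vehicle replicate 1, 2 or 3 raised the adjusted p to between 0.0581 and 0.0793, with log2 fold changes from -0.43 to -0.29, and the fit offset by transcript length gave an adjusted p of 0.0700. The call on Plat therefore lay near the threshold and passed in 10 of 16 alternative fits, in contrast to that on Plau, which passed in all 16. Without vehicle replicate 1, 2 or 3 the log2 fold change of Plat stayed at -0.43, -0.41 and -0.40. Without PTH replicate 3 it was -0.29. Plat is also made by endothelial cells, and 10 endothelial markers had a summed level of 9.39 to 10.8 CPM with vehicle and 9.33 to 11.3 CPM with PTH. Of the 7 endothelial markers tested, Kdr was upregulated (log2 fold change 1.51, adjusted p = 0.0107), Tek was downregulated (log2 fold change -0.49, adjusted p = 0.0215) and 5 did not pass. Over all tested genes the shares were 23.3% upregulated and 22.5% downregulated. Emcn had no count in any sample, Cldn5 had none with vehicle, and the part of endothelial cells in the level of Plat was not tested. The level of Plau per kilobase was 2.54 to 3.69 times that of Plat with vehicle and 6.40 to 11.4 times with PTH, so urokinase transcripts outnumbered those of tPA in every sample.

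Serpine2 encodes protease nexin-1, an inhibitor of thrombin and of both plasminogen activators, and lies on chromosome 1 from 79794197 to 79861180 on the minus strand. Vehicle replicates 1 to 4 had 484, 533, 505 and 524 CPM, and PTH replicates 1 to 4 had 1050, 675, 751 and 857 CPM. All 4 PTH samples were above the vehicle range, and they were spread more widely, with an SD of 19.4% of the mean against 4.28% with vehicle. Serpine2 rose by 0.70 on the log2 scale (SE 0.118, 95% interval 0.45 to 0.96, adjusted p = 4.27e-04), or 1.63-fold. Without PTH replicate 1 the log2 fold change was 0.57 (adjusted p = 1.45e-04).

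Serpinf1 encodes PEDF, the secreted serpin that binds collagen and lacks inhibitory action, and lies on chromosome 11 from 75409769 to 75422701 on the minus strand. Its levels were 1210, 1280, 1300 and 1310 CPM in vehicle replicates 1 to 4 and 1400, 881, 1020 and 1170 CPM in PTH replicates 1 to 4. PTH replicate 1 was above all vehicle samples and the other 3 PTH samples were under them. The log2 fold change was -0.19 (SE 0.122, 95% interval -0.45 to 0.08, adjusted p = 0.229), so no difference was shown over all samples. Without PTH replicate 1, Serpinf1 passed the threshold as downregulated (adjusted p = 0.0138), its log2 fold change then being -0.32. In the other 7 fits that each left out 1 sample it did not.

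The 4 PTH samples took the same order, replicate 1, then 4, 3 and 2, in Plaur, Serpine2, Serpinf1 and Timp2, which is also the order of their total counts. Among all tested genes, 12.3% had PTH samples in this order. The level of Serpine2 per kilobase relative to that of Serpinf1 varied much less among the PTH samples than either gene alone. It was 0.321 to 0.345 in the 4 vehicle samples and 0.606 to 0.635 in the 4 PTH samples, a mean of 0.332 ± 0.00990 against 0.617 ± 0.0133. Each PTH sample thus held more Serpine2 for its Serpinf1 than any vehicle sample did, including PTH replicate 2, where both genes were lowest among the PTH samples.

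**Figure D3:**
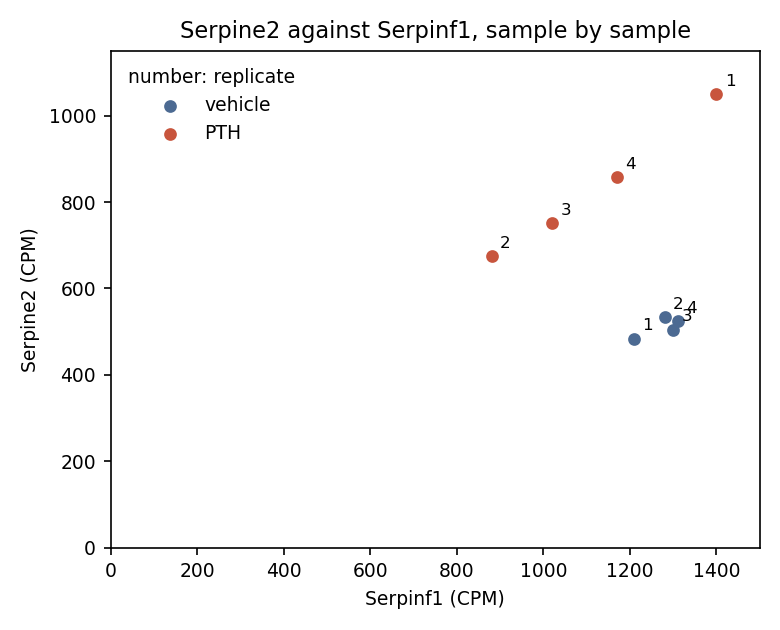
Serpine2 level against Serpinf1 level in CPM, with 1 dot per sample, numbered by replicate, in blue for vehicle and red for PTH, on linear axes that start at 0. The 4 PTH dots fall along a line from 881 and 675 CPM (replicate 2) to 1400 and 1050 CPM (replicate 1), while the 4 vehicle dots cluster at 1210 to 1310 CPM of Serpinf1 and 484 to 533 CPM of Serpine2.

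Timp1, the TIMP known for induction by cytokines and growth factors, lies on chromosome X from 20870166 to 20874735 on the plus strand. Vehicle replicates 1 to 4 had 164, 154, 174 and 199 CPM, and PTH replicates 1 to 4 had 374, 319, 338 and 324 CPM. The treatments did not overlap. Timp1 rose by 0.97 on the log2 scale (SE 0.0878, 95% interval 0.78 to 1.16, adjusted p = 2.60e-06), or 1.96-fold. Its longest transcript, of 883 bases, is the shortest of the 9 genes, and a fit offset by transcript length gave a log2 fold change of 0.73 (adjusted p = 2.02e-04).

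Timp2, a broad inhibitor that also takes part in the activation of Mmp2 by Mmp14, lies on chromosome 11 from 118301069 to 118355740 on the minus strand. Vehicle replicates 1 to 4 had 2730, 2830, 2730 and 2390 CPM, and PTH replicates 1 to 4 had 2910, 2120, 2430 and 2660 CPM. The PTH samples spanned the whole vehicle range and beyond, and the log2 fold change was -0.08 (SE 0.105, 95% interval -0.31 to 0.15, adjusted p = 0.588). Timp3, the TIMP that binds to extracellular matrix, lies on chromosome 10 from 86300372 to 86349506 on the plus strand. Its vehicle replicates 1 to 4 had 618, 623, 665 and 665 CPM, and its PTH replicates 1 to 4 had 638, 564, 611 and 610 CPM. The treatments overlapped through PTH replicate 1, and the log2 fold change was -0.09 (SE 0.0685, 95% interval -0.24 to 0.06, adjusted p = 0.334). The interval of each lay wholly under that of Timp1, though the differences from Timp1 were not tested.

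Timp4, a TIMP best known from heart and brain, lies on chromosome 6 from 115241892 to 115252205 on the minus strand and was barely detected. It had 9 to 18 counts per PTH sample and 11 to 23 per vehicle sample, or 0.311 ± 0.0838 and 0.347 ± 0.128 CPM. Its log2 fold change of -0.15 had an interval from -1.07 to 0.78 (adjusted p = 0.805), which leaves changes of either direction possible.

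Each TIMP gene except Timp2 lies inside a synapsin gene on the opposite strand, and the sources used here do not give a strand setting for the counts, so reads where the exons of such a pair overlap could have been counted for either gene. Whether their exons overlap was not tested. The synapsins, vesicle proteins of neurons, were low: Syn1 around Timp1 had 152 to 204 counts per sample, Syn3 around Timp3 had 3 to 38, and Syn2 around Timp4 had 20 to 51. In the deposited counts the assembled locus of Syn1 held 2 gene symbols, and that of Timp1 held 1. None of the 3 synapsins was called, with log2 fold changes of 0.15 for Syn1, 0.18 for Syn2 and -0.48 for Syn3 (adjusted p = 0.455, 0.712 and 0.493). Timp1 counts of at least 6725 and Timp3 counts of at least 18753 per sample were far above those of their hosts, whereas the counts of Timp4 were of the same size as those of Syn2. Gm17482, which also overlaps Timp4, had no count. Cep295nl, which lies within Timp2 on the same strand, had no entry under its symbol among the deposited counts. Whether reads from it were counted for Timp2 was not tested.

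Per kilobase, the order of the TIMPs was Timp2, Timp1, Timp3 and Timp4 in both treatments. Their summed level was 1010 to 1070 CPM per kilobase with vehicle and 1050 to 1340 with PTH. The share of Timp1 in that sum was 16.4% to 22.3% with vehicle and 30.2% to 34.3% with PTH, and the share of Timp2 was 63.7% to 71.3% with vehicle and 54.4% to 59.1% with PTH. Timp3 held 12.3% to 14.0% and 10.1% to 11.4%, and Timp4 held at most 0.00899%. The ranges of Timp1, Timp2 and Timp3 did not overlap between treatments, although the levels of Timp2 and Timp3 themselves did, since shares of 1 sum move together.

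**Figure D4:**
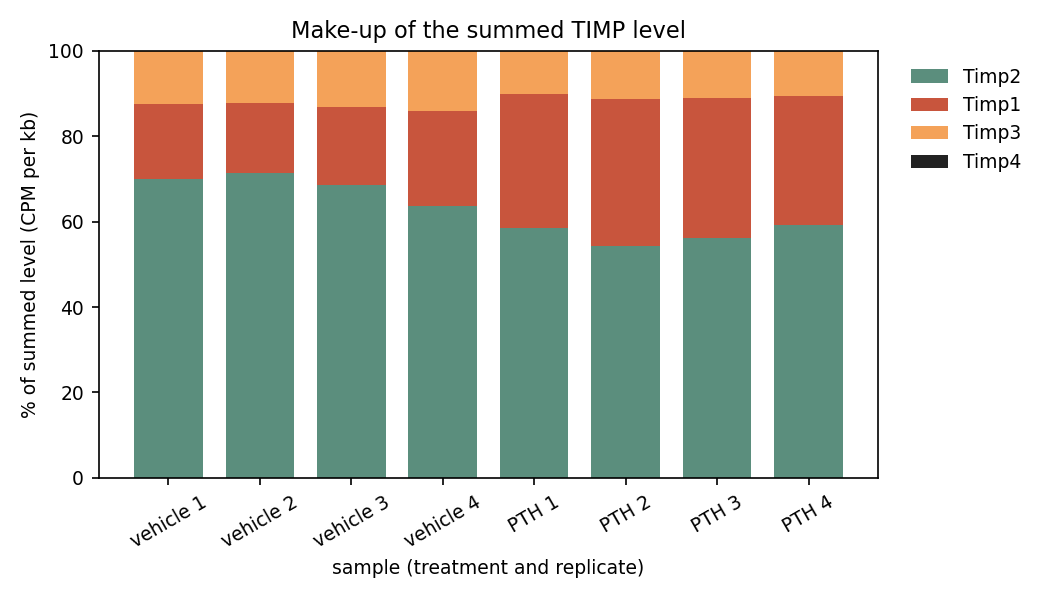
Share of each TIMP in the summed TIMP level (CPM per kilobase of longest transcript, in %) for each of the 8 samples, stacked to 100%. The red Timp1 segment covers 16.4% to 22.3% of the 4 vehicle bars and 30.2% to 34.3% of the 4 PTH bars, and Timp4 is too small to be seen.

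Over all 9 genes, the level per kilobase with vehicle ran from Timp2 (719 ± 51.9 CPM per kilobase) and Serpinf1 (697 ± 23.8) through Serpine2 (231 ± 9.89), Timp1 (196 ± 21.7), Timp3 (136 ± 5.47), Plau (19.6 ± 2.22), Plaur (12.2 ± 1.04) and Plat (6.56 ± 0.341) to Timp4 (0.0631 ± 0.0232). Samples of neighbours in this order overlapped for Timp2 and Serpinf1 and for Serpine2 and Timp1. With PTH the order was Timp2 (682 ± 90.2), Serpinf1 (611 ± 122), Timp1 (383 ± 28.2), Serpine2 (377 ± 73.2), Plaur (198 ± 34.3), Timp3 (128 ± 6.47), Plau (41.4 ± 1.61), Plat (4.91 ± 1.16) and Timp4 (0.0567 ± 0.0152). The overlapping neighbours with PTH were again Timp2 with Serpinf1, and Timp1 with Serpine2. Plaur moved from under Plau to above Timp3, and that move was seen in every sample. When the merged exons of each gene were used as its length, Timp3 stood above Serpine2 with vehicle, and the mean of Plaur was above that of Serpine2 with PTH, where their samples overlapped (95.5 to 140.0 and 81.5 to 126.0 CPM per kilobase), so the place of Serpine2 depends on the length that is assumed.

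Of the 9 genes, 7 (all but Plat and Plau) had a promoter in the RefSeq table for GRCm38.p6, a window of 250 bases before to 50 after the start that RefSeq gives. That start can differ from the end of the GENCODE gene given above, and the windows of Serpine2 and Timp2 lie wholly inside those genes. The 3 upregulated genes among them are shown 5′ to 3′ on the strand of the gene, since PTH signals through cyclic AMP and its nuclear factors of the CREB and AP-1 families. The window of Plaur is chr7:24462233-24462532 on the plus strand, that of Timp1 is chrX:20869916-20870215 on the plus strand and that of Serpine2 is chr1:79858616-79858915 on the minus strand. Capitals mark a match to the AP-1 motif TGANTCA or to the CRE half-site TGACG, on either strand.
Plaur: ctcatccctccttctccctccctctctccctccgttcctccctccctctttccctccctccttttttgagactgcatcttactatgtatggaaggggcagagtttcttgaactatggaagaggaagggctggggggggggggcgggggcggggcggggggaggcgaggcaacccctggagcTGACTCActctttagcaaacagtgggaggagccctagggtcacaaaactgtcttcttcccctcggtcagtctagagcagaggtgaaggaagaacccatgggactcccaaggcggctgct
Timp1: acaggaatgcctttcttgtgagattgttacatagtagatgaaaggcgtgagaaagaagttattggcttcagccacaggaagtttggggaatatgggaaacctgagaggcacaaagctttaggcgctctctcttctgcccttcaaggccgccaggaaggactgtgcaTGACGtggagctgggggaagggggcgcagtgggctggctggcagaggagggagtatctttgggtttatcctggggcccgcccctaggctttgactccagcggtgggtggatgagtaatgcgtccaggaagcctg
Serpine2: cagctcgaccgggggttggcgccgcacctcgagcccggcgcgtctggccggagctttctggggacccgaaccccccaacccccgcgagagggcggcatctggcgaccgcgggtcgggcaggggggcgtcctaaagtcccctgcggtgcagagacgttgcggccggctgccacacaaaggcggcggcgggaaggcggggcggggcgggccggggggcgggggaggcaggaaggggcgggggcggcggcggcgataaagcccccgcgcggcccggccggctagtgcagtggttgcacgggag

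The promoter of Plaur held the AP-1 motif once, starting 69 bases before the RefSeq start, and that of Timp1 held the CRE half-site once, 84 bases before the start. No match to either motif lay in the window of Serpine2 or in those of Serpinf1, Timp2, Timp3 and Timp4. Over all 32851 promoters of the table, 7.81% held the AP-1 motif, which reads the same on both strands, and 20.8% held the half-site. The full CRE, TGACGTCA, which contains the half-site, was in 1.79% of all promoters and in none of the 7. The GC box GGGCGG was in 5 of the 7, which were Plaur, Serpine2, Timp1, Timp2 and Timp3, against 35.7% of all promoters, and Serpine2 held it 6 times. The 5 windows with a GC box held 55.0% to 77.7% of the bases G and C, with Serpine2 the highest. The windows of Serpinf1 and Timp4, without it, held 50.7% and 53.3%, and the median over all promoters was 52.7%. These are matches of letters and not measured binding.

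A list of 24 other genes of the plasminogen system, with its inhibitors, receptors, clearance receptors and neighbours in coagulation, was examined beside the members. Of these, 18 were tested, 7 were upregulated (among them Procr, Thbd, F2r, Lrp1, S100a10 and Anxa2), 1 was downregulated (Vldlr) and 10 did not pass, with a median log2 fold change of 0.33. These counts, and those of the next lists, stand beside the 23.3% upregulated and 22.5% downregulated among all tested genes. The largest rise in the list was that of Procr, the endothelial protein C receptor (log2 fold change 2.63, adjusted p = 1.43e-08), and the fall was that of Vldlr, a receptor that takes up complexes of activators with serpins (log2 fold change -0.95, adjusted p = 4.82e-04). Plg, the gene of plasminogen itself, had 8 to 17 counts per vehicle sample and 62, 4, 9 and 8 counts in PTH replicates 1 to 4. Plg was thus above the vehicle range in PTH replicate 1, under it in PTH replicate 2 and inside it in PTH replicates 3 and 4. It did not pass the test (log2 fold change 0.73, adjusted p = 0.408). Serpinb2, a serpin that inhibits urokinase, had at most 6 counts in any sample and was not tested.

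Of 66 other serpin genes in the table, 26 had no count in any sample and 22 were tested. Of those tested, 4 were upregulated (among them Serpina3k, Serpina3n and Serpinb6a), 3 were downregulated (Serpinb6b, Serpinb9 and Serpinb8) and 15 did not pass, with a median log2 fold change of 0.0. Some serpins, Serpini1 among them, belong both to this list and to that of the plasminogen system. The largest rise was that of Serpina3k (log2 fold change 2.0, adjusted p = 0.0142), which had 5 to 12 counts per vehicle sample and 79, 20, 18 and 10 counts in PTH replicates 1 to 4. Without PTH replicate 1 its adjusted p was 0.0745 with a log2 fold change of 1.27, and genes of the Serpina3 cluster are similar in sequence, so that reads may be split between them. The largest fall was that of Serpinb6b, an intracellular serpin, with 3.41 ± 0.387 CPM in vehicle samples, 1.64 ± 0.269 CPM after PTH and a log2 fold change of -1.06 (adjusted p = 8.83e-04).

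A list of 20 genes held proteases that TIMPs inhibit and partners at the cell surface. Of these, 19 were tested, 3 were upregulated (Adamts4, Adamts1 and Cd63), 6 were downregulated (Mmp8, Adamts5, Mmp11, Reck, Mmp16 and Adam17) and 10 did not pass. The median log2 fold change was -0.05. Adamts4, a protease of aggrecan, had the largest rise of the list, by 3.72 on the log2 scale (adjusted p = 6.20e-11), with 43.9 ± 2.02 CPM in vehicle samples and 577 ± 79.2 CPM after PTH. The largest fall was that of Mmp8 (log2 fold change -2.10, adjusted p = 0.0445), which had at most 27 counts in any sample. Mmp2 and Mmp14, which act together with Timp2, had log2 fold changes of -0.02 and -0.04 (adjusted p = 0.921 and 0.804).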

How the data were processed

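RNA was measured in 4 PTH-treated and 4 vehicle-treated samples, grouped by their labels. Reads of poly(A) RNA were aligned by the authors (HISAT2, GRCm38), transcripts were assembled by StringTie, and the authors deposited the whole-number counts per gene that its companion script gives. The script's read length, the annotation and the strand setting are not given in the sources used here. No 2 columns were identical. Counts were fitted in edgeR 4.0.16 (R 4.3.3; filterByExpr, minimum count 10 and minimum total 15; TMM; quasi-likelihood F-test, two-sided) over all genes, and SE is the absolute log2 fold change over the square root of F. DESeq2, the tool of the study, served as an alternative (version 1.42.0). Both tools were tested on simulated data in which far fewer genes changed than were called here. That test therefore does not show how the tools perform when so many genes change. CPM uses TMM library sizes. Levels per kilobase use the longest coding transcript in GENCODE M21, to which 46590 of 47706 entries were matched. Motifs were searched in Python 3.11.15. Intervals cover 95% and, like the p-values, rest on 4 samples a group. Depth makes genes of few counts imprecise.

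The members and lists were chosen with earlier results of these data known. Named genes are the 9 members, Serpinb2, Plg, a gene that is not reported here, the largest called rise and fall of each list, genes that overlap a member, and Tnfsf11. Alb, macrophage and endothelial genes singled out, and other list members named in counts, were chosen after their values were seen, as were the ratios and shares per kilobase. Alternatives were DESeq2's size factors, no filter on low counts, DESeq2, a replicate block, each sample left out, counts halved (another read length in the companion script), sums over entries of a symbol, an offset for transcript length, the 10 most abundant genes left out, and a log2 fold change of at least 1.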

Additional observations from a re-analysis of the deposited data

How the results depend on the processing

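Plaur, Plau, Serpine2 and Timp1 were upregulated in each of the 16 alternative fits, with log2 fold changes between 3.90 and 4.11, 1.01 and 1.15, 0.57 and 0.80, and 0.73 and 1.04. A threshold of 1 on the log2 fold change left 2 upregulated members, against 7.36% of all tested genes, and 0 downregulated members. The share of all tested genes downregulated at that threshold was not computed. With the transcript length offset 0 members were downregulated (Plat -0.34), and the log2 fold change of Timp2 was 0.02. Leaving out each sample in turn gave 0 to 2 downregulated members, and log2 fold changes of -0.57 to -0.29 for Plat, -0.32 to -0.08 for Serpinf1, -0.15 to 0.01 for Timp2 and -0.34 to 0.11 for Timp4. The sign of Timp2 turned without PTH replicate 2 and that of Timp4 without vehicle replicate 2, and neither gene was called in any fit. The cause of these shifts was not tested. Timp4 could not be fitted with counts halved, since it fell under the filter. Counts of called genes in the 3 other lists stayed within 1.5 times those reported with DESeq2, the replicate block and each sample left out, the other alternatives not being run on them.

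PTH and vehicle samples carry the same replicate numbers, and the labels do not say whether these mark pairs. After removal of group means, the correlation across genes between PTH and vehicle samples of the same number was -0.0409 to 0.0274. Samples of unlike number were not compared, so these values cannot show whether preparations were shared. With the replicate block in edgeR, 4 members were upregulated and 1 downregulated, and 3571 and 3432 of all genes, beside 3907 and 3762 without it.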
